A study of Mus musculus with 9 samples.

Results

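The genes described here encode the nuclear subunits of respiratory complexes II, III, IV and V in mouse whole kidney. They were chosen by symbol: Sdha, Sdhb, Sdhc and Sdhd, and every symbol beginning Uqcr, Cox4i, Cox5, Cox6, Cox7, Cox8 or Atp5. That rule took 44 of 22637 symbols in the deposited files: 4 of complex II, 7 of complex III, 17 of complex IV and 16 of complex V. Kidney mRNA of 129X1/SvJ mice aged 9 weeks was counted in 9 libraries, 3 per group. WT mice were wild type and had no treatment per the labels. KO_PBS and KO_antimiR21 mice were Col4a3 -/-, a model of Alport syndrome that lacks a collagen chain of the glomerular basement membrane, and were given PBS or antimiR-21, an inhibitor of the microRNA miR-21. Genotype was therefore compared together with the injection.

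These complexes sit in the inner mitochondrial membrane. Complex II (succinate dehydrogenase) and complex III (cytochrome bc1) pass electrons towards cytochrome c, complex IV (cytochrome c oxidase) hands them to oxygen, and complex V (ATP synthase) uses the resulting proton gradient to make ATP. Complex II is wholly nuclear-encoded, while the others also hold subunits encoded by mitochondrial DNA. Kidney tubules, the proximal tubule above all, are rich in mitochondria and draw most of their ATP from this chain. Several complex IV subunits exist as a ubiquitous isoform and a second one known from heart and skeletal muscle (Cox6a2, Cox7a1, Cox8b), from lung and low-oxygen settings (Cox4i2) or from testis (Cox6b2, Cox7b2, Cox8c).

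Promoters of the members are shown first. Whether their motifs bear on the changes in the knockout given below was not tested. Promoters (250 bases before to 50 after the annotated start) of 34 of the 44 members were matched by symbol in RefSeq, build GRCm38.p6. The motif GCGCATGC or its reverse complement GCATGCGC, the core of sites for the factor NRF1, was in 7 of these 34 promoters (20.6%), against 5.39% of the 11302 promoters found for all tested genes and 3.05% of all 27025. Stretches of 60 bases that hold it are shown for the 5 members in which it lay before the start, 5′ to 3′ on the gene's strand, with the motif and its overlapping copy on the other strand in capitals.
Sdhb (chr4:140961191-140961250, + strand): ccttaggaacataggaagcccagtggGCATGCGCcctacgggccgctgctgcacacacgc
Atp5k (chr5:108434415-108434474, - strand): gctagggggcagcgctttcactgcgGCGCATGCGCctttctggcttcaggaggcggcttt
Cox6a1 (chr5:115349086-115349145, - strand): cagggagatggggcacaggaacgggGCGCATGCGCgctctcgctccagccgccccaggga
Atp5g2 (chr15:102671055-102671114, - strand): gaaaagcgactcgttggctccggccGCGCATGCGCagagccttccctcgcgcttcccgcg
Atp5l (chr9:44920933-44920992, - strand): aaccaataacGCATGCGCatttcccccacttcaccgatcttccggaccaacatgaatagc
In Uqcr and Uqcrc1 the motif overlapped or followed the start and is not shown.

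Other motifs were searched on both strands in the same windows. CCGGAAGT (the ETS family with GABPA) was in 4 of 34 member promoters (11.8%, against 7.95% of promoters of tested genes), AAGGTCA (estrogen-related receptors) in 5 (14.7% against 4.31%) and AAGATGGC (YY1) in 3 (8.82% against 4.72%). GGGCGG (SP1) was in 14 (41.2% against 65.5%) and CCAAT (NF-Y) in 19 (55.9% against 42.1%). A match describes letters in a window and shows no binding. For the isoform pair Cox7a1 and Cox7a2 the 100 bases before the start are shown, with CCAAT and GGGCGG on either strand in capitals. Whether these letters bear on the counts of the pair was not tested.
Cox7a1 (chr7:30184071-30184170, + strand): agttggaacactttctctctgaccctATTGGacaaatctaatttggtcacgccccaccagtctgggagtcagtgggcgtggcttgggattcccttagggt
Cox7a2 (chr9:79759854-79759953, - strand): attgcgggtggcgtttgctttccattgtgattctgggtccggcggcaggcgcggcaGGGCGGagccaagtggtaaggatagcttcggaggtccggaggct

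Libraries were of similar depth, 26448275 to 31786624 expected counts each. The 44 members took 1.65% to 1.93% of counts in WT, 1.01% to 1.22% in KO_PBS and 1.14% to 1.52% in KO_antimiR21. Col4a3, the targeted gene, stood at 257 to 371 CPM (counts per 1e6 of the TMM-scaled library) in WT and 44.3 to 138 CPM in the knockout libraries. Y-linked transcripts marked 7 libraries as male and 2, WT 1 and WT 3, as female, matching sex letters in the deposited WT library names, so that sex and genotype can be told apart only through WT 2. In 40 of the 42 tested members the single male WT library, WT 2, was above every KO_PBS library. Male libraries alone, a fit with 1 WT library, gave 41 of 42 members below 0 in KO_PBS. The median was -0.79, against 0.04 for all genes. For neither of these counts was the share of all genes taken.

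The first comparison asked how KO_PBS kidneys differed from WT. All 42 tested members had a fold change below 0, as did 52.3% of all tested genes, and 33 fell at an adjusted p under 0.05 (edgeR quasi-likelihood test, adjusted over 17315 genes), where 9.85% of all tested genes were called lower. None rose, where 14.6% of all tested genes were called higher. The median log2 fold change was -0.96, against -0.03 for all tested genes, and 38 of 42 members had every KO_PBS library below every WT library, as did 20.5% of all genes. Falls by complex were 4 of 4 in II, 6 of 7 in III, 11 of 15 in IV and 12 of 16 in V, with medians of -0.93, -1.0, -0.95 and -0.88. The complexes thus had like medians, and the spread lay within complex IV (-2.98 to -0.29) and complex V (-1.20 to -0.36) more than in II (-1.32 to -0.77) or III (-1.20 to -0.81). The count of 33 was smaller when a WT or KO_PBS library was left out: 19, 29 and 14 without WT 1, 2 and 3, and 12, 17 and 20 without KO_PBS 1, 2 and 3. Calls fell over all genes too, from 1705 lower to 974, 1208 and 869 without WT 1, 2 and 3. Without KO_PBS 1, 2 and 3 they were 645, 782 and 1077. With each of the 9 libraries left out in turn, 12 members were called every time, among them Sdhb, Uqcrfs1, Uqcrc1, Cox5a, Cox7b, Atp5c1 and Atp5k. How many of all genes were called every time was not counted. With the library code in the deposited names as covariate (L4 in WT 1 to 3 and KO_PBS 1 and 2, L5 in the other 4) the count was 20. Over all genes 1076 were then lower. With sex as covariate the count was 0, as it was over all genes, and the members' median was -0.81. In that fit sex and genotype are told apart only through WT 2. Scaling by library size only gave 22, with 904 genes of all lower and 3753 higher in place of 1705 and 2521.

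**Figure D1:**
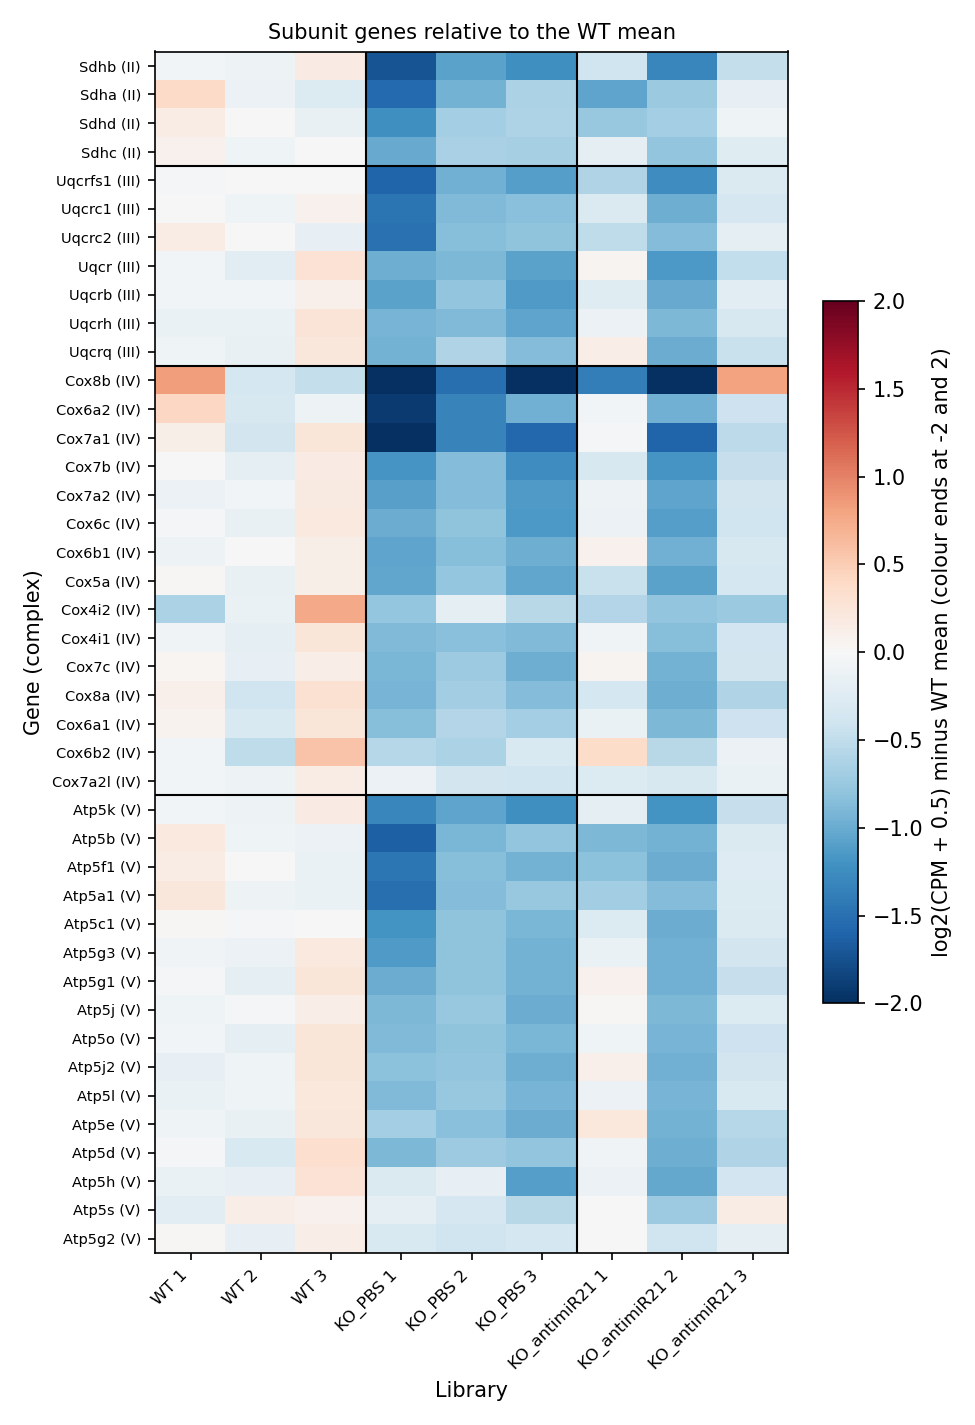
Heat map of the 42 tested subunit genes (vertical axis, by complex) in the 9 libraries (horizontal axis), coloured by log2(CPM + 0.5) minus the WT mean. KO_PBS 1 to 3 and KO_antimiR21 2 are blue for most genes, with medians of -0.99, -0.81, -0.94 and -0.96, while KO_antimiR21 1 and 3 are paler, with medians of -0.13 and -0.35.

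Several lists of cell markers moved in the same libraries. The summed level of 8 proximal tubule markers was 11619 to 15327 CPM in WT, 1871 to 5656 in KO_PBS and 4466 to 9329 in KO_antimiR21, with 6 of 8 called lower and none higher in KO_PBS. Among 6 thick ascending limb and distal tubule markers 4 were called lower (sums of 5329 to 9900 CPM in WT and 2133 to 4509 in KO_PBS), and of 6 collecting duct markers 3. Macrophage markers went the other way, 6 of 7 called higher, with sums of 166 to 198 CPM in WT, 690 to 895 in KO_PBS and 334 to 690 in KO_antimiR21. Markers of myofibroblasts (5 of 5 higher) and T cells (5 of 5 higher) did so too. Podocyte markers did not pass in either direction (0 of 5 called, median 0.04). Of 2 red blood cell markers 1, a beta globin gene, was called lower, and their sum was 31.6 to 79.7 CPM in WT, 1.67 to 7.98 in KO_PBS and 19.9 to 202 in KO_antimiR21. What these cells have to do with the members' fall was not tested. In whole kidney, fewer cells of a type and less RNA per cell cannot be told apart.

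Complex II genes fell throughout. Sdhb, the iron-sulfur subunit, stood at 475, 456 and 549 CPM in WT 1, 2 and 3, at 149, 233 and 209 in KO_PBS and at 373, 198 and 353 in KO_antimiR21. No KO_PBS library reached the lowest WT one, and KO_antimiR21 1 and 3 lay between. Its log2 fold change in KO_PBS was -1.32 ± 0.26 (SE; edgeR adjusted p = 0.00842), the largest in this complex. Sdha, the flavoprotein that oxidises succinate, stood at 916, 647 and 582 CPM in WT, at 239, 363 and 452 in KO_PBS and at 336, 417 and 628 in KO_antimiR21. It fell by 1.03 on the log2 scale (SE 0.31, edgeR adjusted p = 0.0424), with a wide spread inside each group. The membrane anchors Sdhc and Sdhd, which bind ubiquinone, fell by 0.77 and 0.83 (edgeR adjusted p = 0.0188 and 0.0291), both with smaller changes than Sdha and Sdhb. Sdhc was at 312, 275 and 292 CPM in WT, at 146, 186 and 185 in KO_PBS and at 259, 169 and 246 in KO_antimiR21. Sdhd was at 303, 270 and 246 CPM in WT, at 116, 169 and 177 in KO_PBS and at 161, 169 and 255 in KO_antimiR21.

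Complex III had the narrowest range of fold changes. Uqcrfs1, the Rieske iron-sulfur protein, stood at 370, 380 and 378 CPM in WT, at 124, 193 and 174 in KO_PBS and at 247, 158 and 308 in KO_antimiR21. The 3 WT values were nearly equal, and all 6 knockout values lay below them. Its change in KO_PBS was -1.20 ± 0.25 (edgeR adjusted p = 0.0108). The core proteins Uqcrc1 and Uqcrc2 fell by 1.04 and 1.02 (edgeR adjusted p = 0.0129 and 0.0162), with Uqcrc1 at 572, 540 and 603 CPM in WT, at 208, 308 and 318 in KO_PBS and at 465, 290 and 451 in KO_antimiR21. Of the small subunits, Uqcrb (-1.0 ± 0.21, edgeR adjusted p = 0.0117), Uqcrh, the hinge protein (-0.97 ± 0.21, edgeR adjusted p = 0.0129), and Uqcr, now named Uqcr11 (-1.0 ± 0.28, edgeR adjusted p = 0.0308), fell as well. Uqcrb stood at 230, 230 and 256 CPM in WT, at 113, 137 and 109 in KO_PBS and at 202, 118 and 205 in KO_antimiR21, and Uqcr at 272, 243 and 345, 144, 152 and 135, and 294, 127 and 202. For Uqcrb all knockout libraries were below WT, while Uqcr in KO_antimiR21 1 was within the WT range. Uqcrq, a small subunit at 222, 212 and 275 CPM in WT, at 122, 154 and 128 in KO_PBS and at 258, 118 and 172 in KO_antimiR21, was the 1 member of this complex not past the threshold (-0.81 ± 0.26, edgeR adjusted p = 0.0534), though WT and KO_PBS did not overlap.

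**Figure D2:**
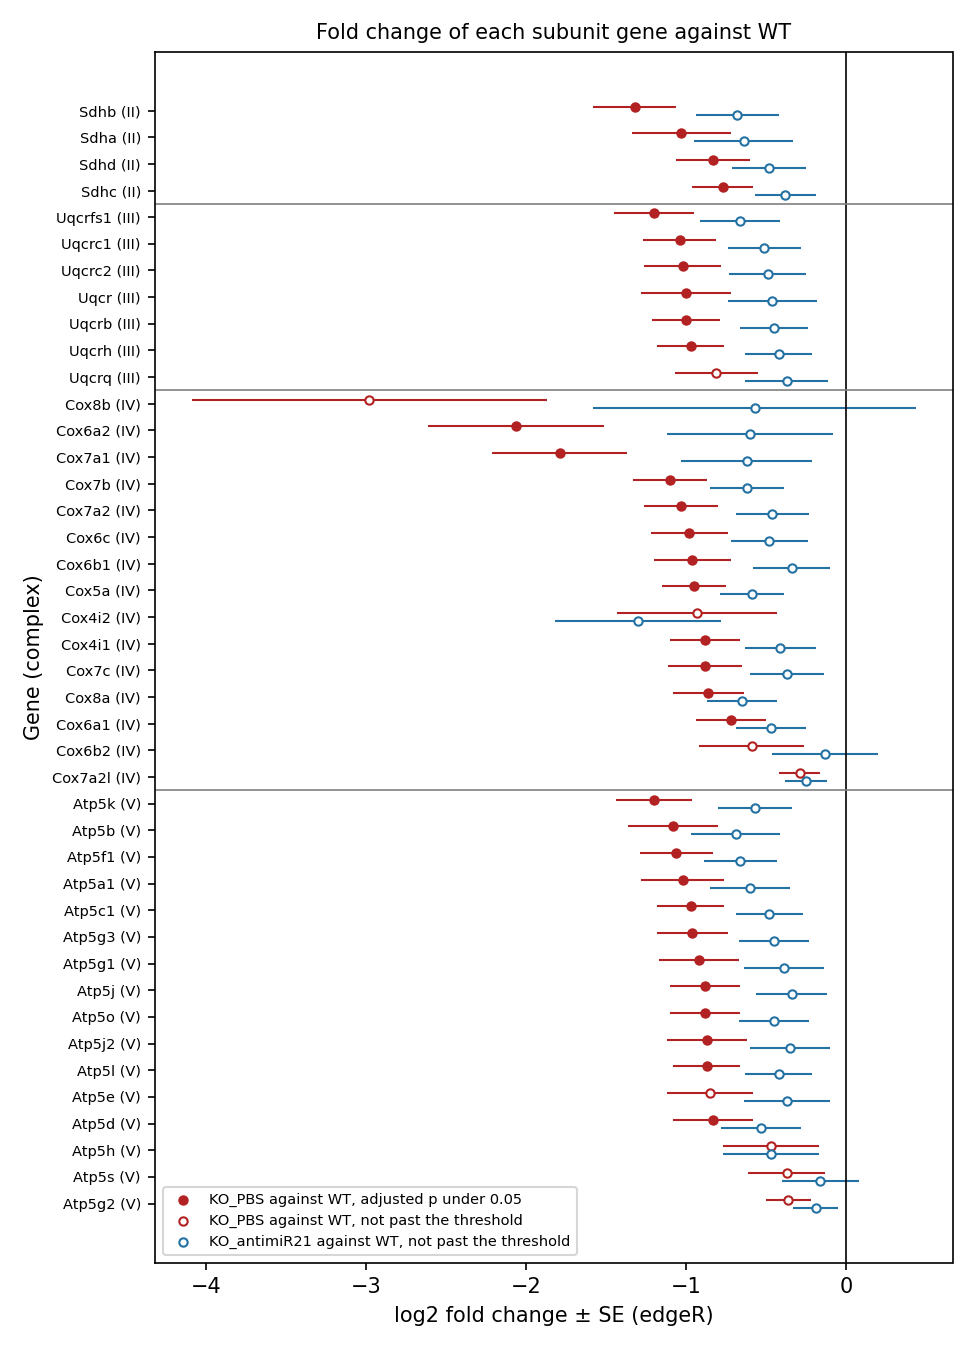
Log2 fold change (horizontal axis, bars ± SE from edgeR, n = 3 per group) of each tested subunit gene (vertical axis, by complex) in KO_PBS (red) and KO_antimiR21 (blue) against the same 3 WT libraries. Filled points passed an adjusted p of 0.05: 33 of 42 in KO_PBS and 0 of 42 in KO_antimiR21, and all points lie left of 0.

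In complex IV 9 of the 10 tested genes that are not tissue isoforms fell. Cox4i1, the largest nuclear-encoded subunit, stood at 856, 799 and 1068 CPM in WT, at 488, 506 and 487 in KO_PBS and at 861, 497 and 693 in KO_antimiR21. KO_PBS values were tight and well under WT, while KO_antimiR21 spanned from the KO_PBS level to the WT level. Its change in KO_PBS was -0.88 ± 0.22 (edgeR adjusted p = 0.0200). Cox7b had the lowest p of this complex (-1.10 ± 0.23, edgeR adjusted p = 0.0103), at 332, 293 and 373 CPM in WT, at 146, 181 and 139 in KO_PBS and at 264, 146 and 241 in KO_antimiR21. Cox5a, a subunit on the matrix side, was next (-0.95 ± 0.20, edgeR adjusted p = 0.0107), at 279, 249 and 299 CPM in WT, at 134, 161 and 134 in KO_PBS and at 201, 130 and 216 in KO_antimiR21. For both genes no knockout library reached the lowest WT one. Cox6b1, Cox6c, Cox7a2, Cox7c, Cox8a and Cox6a1 also fell, by 0.72 (Cox6a1) to 1.03 (Cox7a2). Cox7a2 stood at 263, 275 and 323 CPM in WT, at 134, 157 and 130 in KO_PBS and at 267, 138 and 222 in KO_antimiR21. Cox6a1 stood at 547, 422 and 618 CPM in WT, at 289, 348 and 325 in KO_PBS and at 477, 279 and 393 in KO_antimiR21. Cox8a stood at 554, 392 and 637 CPM in WT, at 272, 318 and 282 in KO_PBS and at 405, 263 and 340 in KO_antimiR21. WT 2, the only male WT library, was the lowest WT library for Cox6a1 and Cox8a and lay above KO_PBS. Among male libraries alone their changes were smaller, -0.37 and -0.41, against -0.72 and -0.86 in all libraries. Cox6b1, the subunit that faces cytochrome c, stood at 570, 609 and 668 CPM in WT, at 295, 341 and 313 in KO_PBS and at 649, 314 and 494 in KO_antimiR21. Cox7a2l, which encodes a factor that joins complexes III and IV into supercomplexes, stood apart in size: 169, 163 and 194 CPM in WT, at 162, 135 and 133 in KO_PBS and at 144, 140 and 160 in KO_antimiR21, a change of -0.29 ± 0.13 that did not pass (edgeR adjusted p = 0.150). Whether its change differed from that of Cox7a2 was not tested.

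The tissue isoforms were scarcer than their ubiquitous partners, and the 3 muscle-type ones had the largest fold changes of all members. Per transcript length (GENCODE vM21, over the annotated coding transcripts), Cox7a1 in WT was at 10.2% to 12.6% of Cox7a2, Cox8b at 2.06% of Cox8a, Cox6a2 at 0.346% of Cox6a1 and Cox4i2 at 0.0956% to 0.155% of Cox4i1. Cox7a1 stood at 23.1, 16.3 and 25.2 CPM in WT, at 3.81, 8.08 and 6.83 in KO_PBS and at 20.7, 6.67 and 14.6 in KO_antimiR21. KO_PBS lay wholly below WT, and its change was -1.79 ± 0.42 (edgeR adjusted p = 0.0169), against -1.03 ± 0.23 for Cox7a2. Cox6a2 stood at 3.0, 1.60 and 1.93 CPM in WT, at 0.192, 0.534 and 0.839 in KO_PBS and at 2.02, 0.838 and 1.47 in KO_antimiR21 (-2.06 ± 0.55 in KO_PBS, edgeR adjusted p = 0.0257). It fell from a low level, 327 counts in all 9 libraries together.

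Ratios within a library do not depend on scaling, so they were compared directly. The log2 ratio of Cox7a1 to Cox7a2 was -3.51, -4.07 and -3.68 in WT and -5.13, -4.28 and -4.25 in KO_PBS, a difference of -0.80. For Cox6a2 to Cox6a1 the difference was -1.50 and for Cox8b to Cox8a -2.48. Without KO_PBS 1 the Cox7a1 difference was -0.51 and the Cox6a2 difference -0.99, and among male libraries the Cox7a1 difference was -0.48. In these 3 pairs the groups did not overlap, and each had a two-sided exact permutation p of 0.1, the smallest that 3 against 3 allows. The ratios of Cox4i2 to Cox4i1 (0.13) and Cox6b2 to Cox6b1 (0.44) overlapped between WT and KO_PBS (exact permutation p = 0.900 and 0.300), and the first turned below 0 without WT 1 or KO_PBS 2 (-0.30 and -0.11). These 5 pairs were tested together, and no p could pass after adjustment. Between KO_PBS and KO_antimiR21 the ratio differed by 1.36 for Cox6a2 and -0.76 for Cox4i2, each without overlap (two-sided exact permutation p = 0.1), while the Cox7a1, Cox8b and Cox6b2 ratios overlapped.

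**Figure D3:**
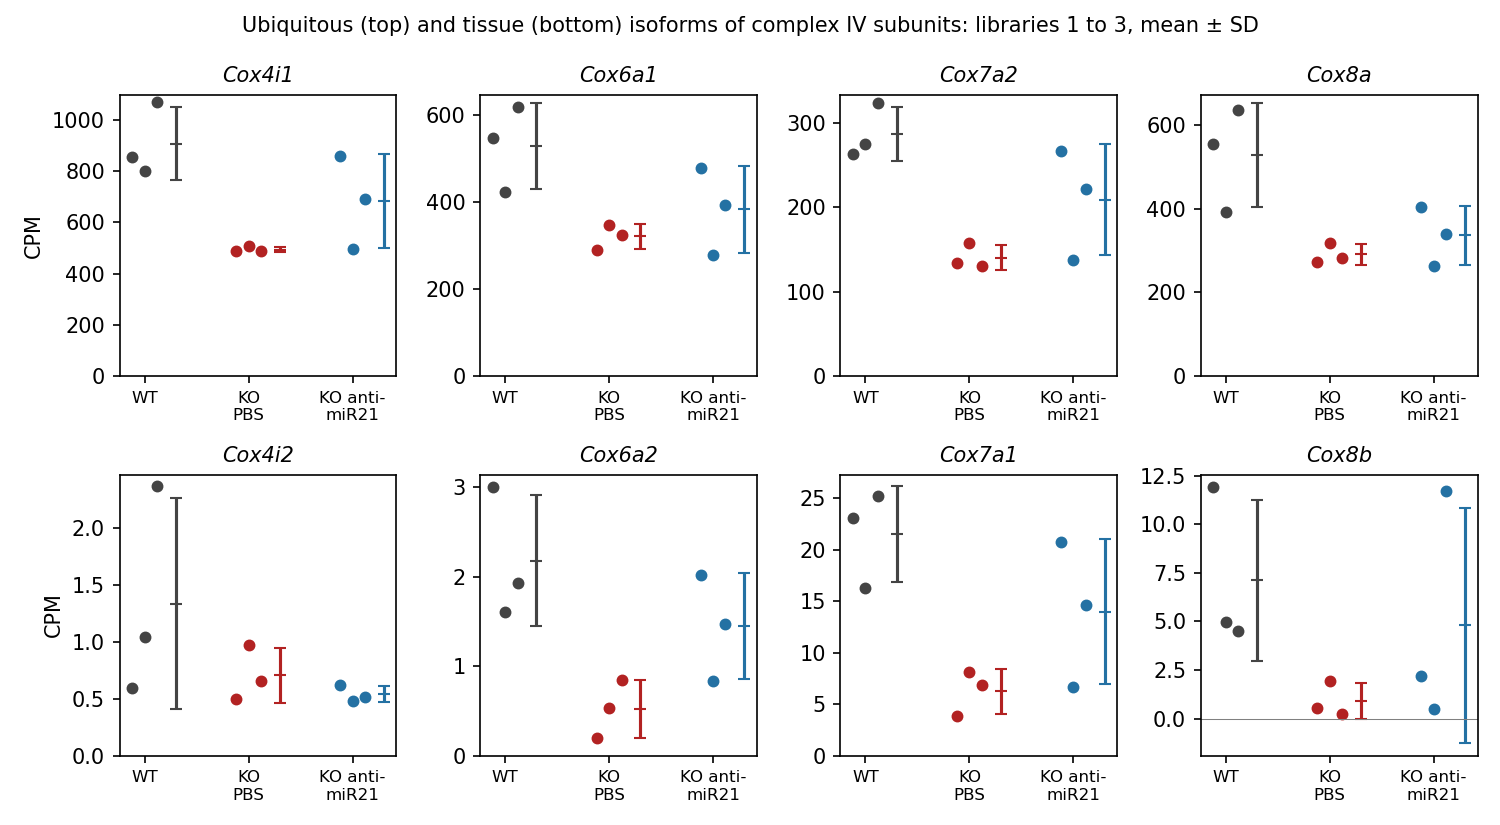
CPM (vertical axes, each from 0 or below) of 4 ubiquitous complex IV isoforms (top) and their tissue counterparts (bottom) in the 3 groups (horizontal axes), with 1 point per library from 1 to 3 and the mean ± SD beside them. Cox7a1 and Cox6a2 sit lower in all 3 KO_PBS libraries than in any WT library, and Cox8b is at 11.9 CPM in WT 1 and 11.7 in KO_antimiR21 3.

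Cox8b varied most among libraries. It stood at 11.9, 4.97 and 4.5 CPM in WT, at 0.521, 1.94 and 0.248 in KO_PBS and at 2.17, 0.515 and 11.7 in KO_antimiR21. Its change of -2.98 ± 1.11 in KO_PBS did not pass (edgeR adjusted p = 0.0831). Cox8b, Cox7a1 and Cox6a2 are also known from brown fat and muscle, so markers of those tissues were read in the same libraries. The brown fat gene Ucp1 was at 5.70, 14.6 and 0.764 CPM in WT, at 0.164, 2.27 and 0.0621 in KO_PBS and at 0.0776, 0.354 and 30.9 in KO_antimiR21, and 1 of 4 tested brown fat markers was called lower in KO_PBS. That gene was Cpt1b, at 55.4, 53.2 and 103 CPM in WT, at 11.2, 18.3 and 18.1 in KO_PBS and at 29.9, 22.9 and 56.7 in KO_antimiR21, while Ucp1, Cidea and Otop1 were not called. Summed brown fat markers ranged over 65.0 to 105 CPM in WT, 11.8 to 23.0 in KO_PBS and 24.0 to 129 in KO_antimiR21. Cpt1b made most of that sum in every WT and KO_PBS library, from 53.2 of 84.2 CPM in WT 2 to 18.1 of 18.2 in KO_PBS 3. In KO_antimiR21 3 it made 56.7 of 129 CPM. Ucp1 and Cidea overlapped between WT and KO_PBS: 0.764 and 1.61 CPM in WT 3, 2.27 and 2.24 in KO_PBS 2. Otop1 did not overlap, but was at only 0.121 CPM in WT 3. The gap in the sum between WT and KO_PBS is thus mainly that of Cpt1b. White fat markers summed to 2.17 to 19.7, 0.683 to 5.81 and 0.621 to 63.7 CPM in the same groups. Skeletal muscle markers summed to 0.805 to 3.18 CPM in every library, with Ckm at 0 to 0.124 CPM, and heart markers to 2.80 to 6.35, with 1 of 4 tested heart markers called lower. The highest Cox8b in the knockout coincided with the highest Ucp1 (KO_antimiR21 3), but in WT the highest Cox8b (WT 1) and the highest Ucp1 (WT 2) were in different libraries, and Cox7a1 was highest in WT 3, where Ucp1 was the lowest and Cpt1b the highest of the WT libraries. What part fat tissue has in these levels was not tested.

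The remaining tissue isoforms were scarce. Cox4i2 was at 0.591, 1.04 and 2.37 CPM in WT, at 0.493, 0.968 and 0.652 in KO_PBS and at 0.621, 0.483 and 0.515 in KO_antimiR21, with WT 3 standing above the rest (-0.93 ± 0.50, edgeR adjusted p = 0.221). Cox6b2 was at 10.2, 7.26 and 15.9 CPM in WT, at 6.99, 6.68 and 8.48 in KO_PBS and at 13.8, 7.02 and 9.67 in KO_antimiR21, groups that overlapped (-0.59 ± 0.33, edgeR adjusted p = 0.231). Its fold change was 0.05 among male libraries alone. Cox7b2 and Cox8c had 2 counts and 1 count over all 9 libraries, too few to test.

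In complex V both the catalytic head and the membrane part fell. Atp5b, the catalytic beta subunit and the member with the most counts, stood at 3796, 3126 and 3029 CPM in WT, at 1063, 1756 and 1901 in KO_PBS and at 1767, 1715 and 2690 in KO_antimiR21. All knockout libraries were below the WT range, and its change in KO_PBS was -1.08 ± 0.28 (edgeR adjusted p = 0.0248). The other head subunits Atp5a1 (alpha) and Atp5c1 (gamma, the central stalk) fell by 1.02 and 0.97 (edgeR adjusted p = 0.0215 and 0.0120), and Atp5d (delta) by 0.83. Atp5c1 stood at 594, 574 and 588 CPM in WT, at 255, 334 and 309 in KO_PBS and at 484, 295 and 479 in KO_antimiR21, with a narrow WT group. Atp5e, the epsilon subunit of the stalk, did not pass (-0.85 ± 0.27, edgeR adjusted p = 0.0531). Atp5k, the small membrane subunit e, had the lowest p of all members: 217, 210 and 255 CPM in WT, at 91.5, 109 and 96.5 in KO_PBS and at 197, 98.4 and 164 in KO_antimiR21 (-1.20 ± 0.24 in KO_PBS, edgeR adjusted p = 0.00805). Its 3 KO_PBS values were tight and far from WT.

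The c-ring gene family parted in size. Atp5g1, Atp5g2 and Atp5g3 encode nearly the same mature c subunit behind different import sequences. Atp5g3, at 827, 806 and 997 CPM in WT, at 398, 498 and 453 in KO_PBS and at 796, 450 and 679 in KO_antimiR21, and Atp5g1, at 382, 343 and 466, 198, 225 and 205, and 420, 201 and 287, fell by 0.96 and 0.92 (edgeR adjusted p = 0.0159 and 0.0292). Atp5g2 was at 239, 210 and 258 CPM in WT, at 191, 179 and 183 in KO_PBS and at 233, 179 and 208 in KO_antimiR21. WT and KO_PBS did not overlap, with a change of -0.36 ± 0.14 that did not pass (edgeR adjusted p = 0.0989). Whether Atp5g2 differed from its relatives in change was not tested. Reads from the family and from its processed copies in the genome may be shared among symbols by the counting, so these 3 values are uncertain singly. Of the peripheral stalk, Atp5f1 (subunit b), Atp5o (OSCP) and Atp5j (F6) fell by 1.06, 0.88 and 0.88, while Atp5h (subunit d) did not pass. Atp5h was at 335, 327 and 448 CPM in WT, at 301, 327 and 171 in KO_PBS and at 339, 179 and 282 in KO_antimiR21, so that KO_PBS 1 and 2 were near WT and KO_PBS 3 was not (-0.47 ± 0.30, edgeR adjusted p = 0.294). Atp5s, now named Dmac2l, a coupling factor rather than a structural subunit, was at 14.0, 18.1 and 17.6 CPM in WT, at 14.4, 13.0 and 11.0 in KO_PBS and at 16.5, 9.73 and 18.3 in KO_antimiR21, overlapping in all groups (-0.37 ± 0.24, edgeR adjusted p = 0.306).

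Other genes of the pathway were counted from fixed lists. Of 7 further subunits and partners of these complexes 6 fell (median -0.94), among them Cyc1, the cytochrome c1 of complex III (-0.99 ± 0.22), and Ndufa4, a subunit now placed in complex IV (-1.04 ± 0.27). Of 36 genes taken by symbol for complex I 29 were lower, with a median of -0.92, close to that of complexes II to V. The 36 include Ndufa12l, an assembly factor rather than a subunit, which was not called (-0.54 ± 0.20). Listed assembly factors of complexes II to V had a smaller median, -0.46, with 8 of 20 lower. Among these were the complex III factor Uqcc (-0.75 ± 0.14) and the complex IV copper factor Cox11 (-0.82 ± 0.17). Among 13 other mitochondrial proteins, of the outer membrane, matrix and inner membrane, 5 were lower (median -0.31): the outer membrane channel Vdac1, the matrix chaperones Hspd1 and Hspe1, and the inner membrane proteins Immt and Phb. None of these lists had a gene called higher, and the difference in median between lists was not tested. Of 15 transcriptional regulators of mitochondrial genes 3 fell: Esrrb (-1.76 ± 0.32), Esrra (-0.88 ± 0.17) and Tfam, which packages mitochondrial DNA and helps start its transcription (-0.55 ± 0.16), with edgeR adjusted p from 0.00579 to 0.0328. Nrf1 stood at 0.04 ± 0.12 and Ppargc1a, a coactivator, at -0.99 ± 0.61 (edgeR adjusted p = 0.841 and 0.280), both named here after their values were seen. The symbol Cox2, listed beside Ptgs2 and matched to the mitochondrially encoded complex IV subunit of RefSeq only by ignoring letter case, stood at 22865 to 24451 CPM in WT and 8996 to 12377 in KO_PBS (-1.17 ± 0.32, edgeR adjusted p = 0.0301).

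The second comparison asked what the miR-21 inhibitor changed in the knockout. Fold changes of KO_antimiR21 against KO_PBS were above 0 in 41 of 42 members and in 48.1% of all genes, with a median of 0.48 against -0.01 for all genes, but 0 members were called, as were 0 of all 17315 genes (0% higher; edgeR adjusted p of at least 0.707 for every gene). At an unadjusted p under 0.05, 12 of 42 members were higher, against 3.57% of all genes, and DESeq2 also called 0 members (7 genes higher and 12 lower over all). That 12 was 0 with the library code as covariate (all KO_antimiR21 libraries are L5, and KO_PBS 1 and 2 are L4), 3 with library size only, 2 with a replicate block and 4 with the 2 groups alone or male libraries only. With 1 library left out it was 0 without KO_PBS 1, 4 without KO_PBS 3, 1 and 2 without KO_antimiR21 1 and 3, and 30 without KO_antimiR21 2. It was 8 without KO_PBS 2, 18 with no filter on low counts and 20 by DESeq2. Over all genes, those at an unadjusted p under 0.05 in either direction numbered 1203 in the main fit. They were 221 with the library code, 587 without KO_PBS 1 and 1230 without KO_PBS 3. Without KO_antimiR21 1, 2 and 3 they were 866, 2516 and 395. Sdhb was at 0.64 ± 0.26, Atp5k at 0.63 ± 0.23, Cox7a1 at 1.16 ± 0.42 and Cox6a2 at 1.46 ± 0.54 (edgeR adjusted p = 0.707 for each). In none of the 42 members did the groups part (KO_antimiR21 wholly higher in 3.83% of all genes), because KO_antimiR21 2 was within or below the KO_PBS range in all 42. KO_antimiR21 1 and 3 were above every KO_PBS library in 37 and 39 members. For single libraries such positions were not counted over all genes. Without KO_antimiR21 2 the median was 0.68 with still 0 called, and without KO_antimiR21 1 it was 0.30. The same library had the lowest proximal tubule sum of its group, 4466 CPM, against 7590 in KO_antimiR21 1 and 9329 in KO_antimiR21 3, and the highest macrophage sum, 690 CPM against 582 and 334, but its distal tubule sum (5781 CPM) was between theirs (3958 and 6984). The part of these cells in the members' levels was not tested.

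KO_antimiR21 1 and 3 were high for different members. In KO_antimiR21 1, 24 members were at or above the lowest WT library, among them small subunits such as Cox6b1 (649 CPM, against 570 to 668 in WT), Cox7c, Uqcr and Atp5e (303 CPM, against 238 to 309), but Sdha, Sdhd and Atp5b were within the KO_PBS range (336, 161 and 1767 CPM). In KO_antimiR21 3, 5 members were at or above the lowest WT library and 37 were below it. The shares of all genes at these positions were not counted. Sdha (628 CPM) and Sdhd (255 CPM) were among the 5, while Atp5b (2690 CPM), Cox6b1 (494 CPM) and Atp5e (176 CPM) were between the KO_PBS and WT ranges. These genes were picked for the contrast after their values were seen. They also differ in transcript length: the median annotated coding transcript is 1811 bases for Sdha and 1916 for Atp5b, but 486 for Cox6b1 and 421 for Atp5e. Relative to the mean of their group, the 30 members with transcripts under 1000 bases had a median of 0.39 in KO_antimiR21 1 and the 4 members of at least 1500 bases -0.13, while in KO_antimiR21 3 the medians were 0.10 and 0.38. These 4 were Sdha, Atp5a1, Atp5b and Atp5g1. The class of Atp5g1 is uncertain, as its transcripts run from 596 to 4715 bases. It was within the WT range in KO_antimiR21 1 (420 CPM, against 343 to 466). Uqcrc1 was classed as short, with transcripts of 370 to 1653 bases, and Sdhd, at 1231, was in neither class.

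**Figure D4:**
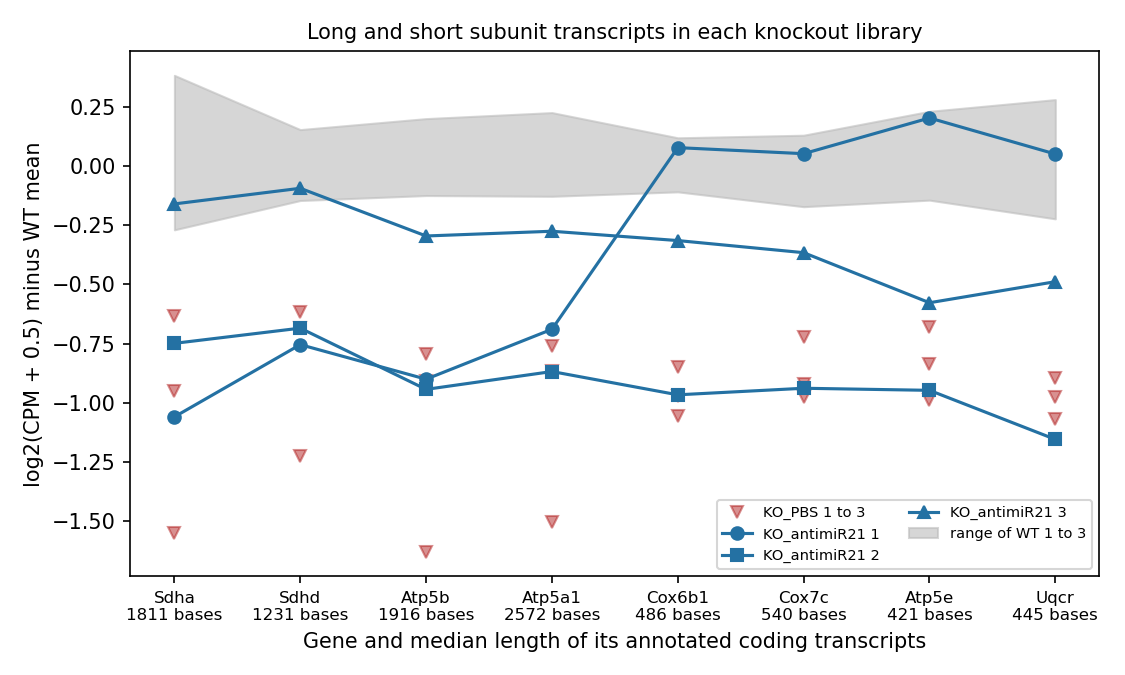
Log2(CPM + 0.5) minus the WT mean (vertical axis) of 8 subunit genes, 4 with longer and 4 with short transcripts (horizontal axis), in each knockout library, with the range of WT 1 to 3 in grey. KO_antimiR21 1 sits with KO_PBS for Sdha (336 CPM) and with WT for Cox6b1 (649 CPM). KO_antimiR21 3 is within the WT range for Sdha (628 CPM) and between the KO_PBS and WT ranges for Cox6b1 (494 CPM) and Atp5e (176 CPM).

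All genes showed the same tilt in smaller size. Of tested genes with an annotated length (14597 of 17315), those under 1000 bases had a median of 0.13 relative to the group mean in KO_antimiR21 1 and those of at least 1500 bases -0.06. The gap between short and long was 0.19 in KO_antimiR21 1, 0.11 in WT 3 and 0.10 in KO_PBS 1, and -0.14 in KO_antimiR21 2 -0.08 in both WT 1 and KO_PBS 3 and -0.04 in KO_antimiR21 3. For members the gaps in these libraries were 0.53, 0.33, 0.41, -0.25, -0.27, -0.36 and -0.28. Between groups the tilt was small beside the fall: in KO_PBS against WT short members had a median change of -0.88 and long ones -1.02, and all short and long genes -0.04 and -0.00. What makes libraries tilt by length was not tested.

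The third comparison set KO_antimiR21 against WT, sharing its samples with the others. All its WT libraries carry the code L4 and all its KO_antimiR21 libraries L5, so group and code are joined here except through KO_PBS. All 42 members were again below 0, as were 54.2% of all genes, with a median of -0.47 (-0.04 for all genes), and 0 were called lower, against 0.427% of all genes, or higher, against 6.72% (edgeR). The median was -0.25 without KO_antimiR21 2, -0.26 among male libraries and -0.29 with sex as covariate. At an unadjusted p under 0.05 there were 11, against 6.78% of all genes lower. DESeq2 called 2 members lower, Cox5a and Cox8a, and 394 of all genes. That 11 was 0 with sex as covariate or among male libraries, 1 with the library code as covariate or without KO_antimiR21 2, 2 without WT 1 or without WT 3, and 27 without KO_antimiR21 1. Over all genes, those at an unadjusted p under 0.05 in either direction numbered 3498 in the main fit. They were 2115 with sex and 2031 with the library code as covariate. Without KO_antimiR21 1 and 2 they were 3126 and 2399, and without WT 1 and 3, 2868 and 2964. In 15 members every KO_antimiR21 library was below every WT library, as in 9.83% of all genes, among them Sdhb, Sdhc, Uqcrfs1, Uqcrc1, Cox5a, Cox7b, Atp5a1, Atp5b and Atp5k. The lowest edgeR adjusted p was that of Cox5a, 0.127 (-0.59 ± 0.20), which stood at 201, 130 and 216 CPM in KO_antimiR21 against at least 249 in WT. Cox7a1 was at -0.62 ± 0.41 and Cox8b at -0.57 ± 1.01. By library the members' median distance from the WT mean was -0.13, -0.96 and -0.35 in KO_antimiR21 1, 2 and 3, against -0.99, -0.81 and -0.94 in KO_PBS. Complex II differed from the other complexes in KO_antimiR21 1, where its median was -0.57 and those of III, IV and V were -0.23, -0.11 and -0.10. It was also the lowest in KO_PBS 1, at -1.39 against -1.07, -0.99 and -0.90. In KO_PBS 3, KO_antimiR21 2 and KO_antimiR21 3 it was the highest, at -0.65, -0.77 and -0.20. These differences were not tested.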

How the data were processed

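Whole-kidney RNA (miREASY kit; TruSeq RNA v2 libraries from total RNA) was sequenced in 9 libraries. The deposited tables give expected counts per gene symbol, made with Bowtie and RSEM against mm9 per the submitters' processing notes; versions, annotation and strand are not given in the sources used here. RSEM shares reads among similar copies, and respiratory subunits have many processed pseudogenes, so levels of single members can be affected. The authors also deposited a log2 matrix, named as voom output per the file headers and with limma named in the submitters' processing notes; it equalled log2 CPM plus 1 constant per library to within 5.15e-14. Counts were rounded, filtered by filterByExpr (17315 genes, 42 of 44 members), TMM-scaled and fitted in 1 edgeR quasi-likelihood model of 3 group means, with Benjamini-Hochberg adjustment over all genes and a threshold of 0.05. Python 3.11.15 and R 4.3.3 were used, with DESeq2 1.42.0, limma 3.58.1 and edgeR 4.0.16. The code was tested on simulated data. CPM in the text is counts per 1e6 of the TMM-scaled library; log2 ratios within a pair used an added count of 0.5, and library positions log2(CPM + 0.5).

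Groups and replicate numbers came from the sample titles. Each of the 9 deposited library names carries a different number, which may mark separate animals, but the labels do not say so; p-values cover only the spread between these libraries, which may be technical. Members and lists were chosen with earlier results of these data known. Named with values in every library were, per complex, the 2 members of lowest and the 2 of highest p in KO_PBS against WT, the member of most counts and all isoform families, and of each list at most 3 genes of lowest p. List genes named outside that rule were Nrf1, Ppargc1a, Cidea, Ckm and Ndufa12l, and, without values, Hspd1 and Immt. Alternatives were RLE factors, library size only, no filter, DESeq2, limma on the deposited matrix (trend), the 2 groups alone, a replicate block, sex, library code and each library left out. Sequences came from RefSeq (GRCm38.p6) and lengths from GENCODE vM21, matched by symbol; no coordinates were joined to the mm9 counts. Members whose promoter is missing from the table are Atp5a1, Cox4i1, Cox4i2, Cox6a2, Cox6c, Cox8c, Sdhc, Uqcrb, Uqcrc2 and Uqcrq.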

Additional observations from a re-analysis of the deposited data

How the results depend on the processing

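The count of 33 members lower in KO_PBS was 0 with sex as covariate and 0 among male libraries only (medians -0.81 and -0.79; 0 of all genes were called either), and 20 with the library code (L4 or L5 in the deposited names) as covariate. It was 22 with library size only, where the median of all genes moved from -0.03 to 0.25; relative to that median the members stood at -0.93 in both. It ran from 12 to 35 with 1 library left out, 35 by limma on the deposited matrix and 37 by DESeq2. Over all genes the number lower was 645 to 1804, 1695 and 2347 in these fits. In KO_antimiR21 against WT, members lower numbered 2 by DESeq2 and 0 to 1 with 1 library left out (Atp5f1 without KO_antimiR21 3), and 0 under the other alternatives. With the replicate number as a block, 27 members were lower in KO_PBS; same-numbered libraries correlated at -0.31 to 0.40 and were not taken as pairs. Isoform differences between KO_PBS and WT kept their sign in every alternative run, except Cox4i2 to Cox4i1, which ran from -0.30 to 0.53 with 1 library left out. Cox6b2 in KO_PBS reversed to 0.02 with sex as covariate and 0.05 among male libraries only. Cox8b in KO_antimiR21 against WT reversed to 1.70 with the library code as covariate, and ran from -2.40 to 0.03 with 1 library left out. Depth limits Cox7b2, Cox8c and Cox4i2.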
